A study of Mus musculus with 2 samples.

Results

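Adamdec1 (ENSMUSG00000022057.8) is 1 of 18545 genes listed for either of the 2 libraries described here, and 1 of the 16098 listed for both. It was chosen for its uneven level over the stromal types of the mouse gut, so its levels are given as a description, with no test. The gene is protein coding and lies on the minus strand of chromosome 14 (GRCm38, the same build as mm10, 68563380 to 68582095), with 14 exons in its single annotated transcript. Its neighbours there are the related genes Adam7 (68497336 to 68533689) and Adam28 (68604998 to 68655889), which gave 14 UMIs in the small intestine and 29 UMIs in the colon, the one library in which each was listed. A UMI marks 1 captured RNA molecule.

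The colon library and the small intestine library each came from healthy, untreated mouse tissue, with 1 library per tissue. The tissue was stripped of epithelium and digested for 60 min (colon) or 45 min (small intestine). Live cells lacking CD45 and EpCAM (CD326) were sorted and run fresh on the 10x Genomics 3' v3.1 kit. Strain, age and the number of animals were not given in the sources used here. Digestion time and tissue cannot be told apart, and nothing below has a replicate check.

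Adamdec1 encodes decysin 1, a secreted metalloprotease of the ADAM family that lacks most of the domains following the protease domain in its relatives. It was first described in dendritic cells and macrophages. In the gut it is best known as a transcript of lamina propria fibroblasts, and mice without it are more susceptible to chemically induced colitis. The stromal labels used by the authors follow known divisions. Trophocytes are CD81-positive, Grem1-expressing fibroblasts that support the crypt base. SEMFs are PDGFRA-high cells under the epithelium that make BMP ligands. The CD81- FBs are the remaining fibroblasts.

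The colon library held 6018 cells with a median of 6598 UMIs and the small intestine library 9359 cells with a median of 5943 UMIs. Of their cell barcodes, 21 were shared. The authors' labels were checked against marker lists. Cd81 was at 38.0 CPM (UMIs per 1000000 UMIs of the label) in colon CD81- FBs against 585 CPM in colon trophocytes, and at 8.14 against 560 CPM in the small intestine. The SEMF list was highest in SEMFs (6356 and 9748 CPM), and the trophocyte list was highest in trophocytes (5576 and 7632 CPM). The lamina propria fibroblast list did not single out CD81- FBs: it was at 17303 and 22663 CPM there and at 25985 and 37675 CPM in trophocytes. Colon cells were a mixture by sex-linked transcripts, with cells holding Xist and cells holding Y-linked UMIs. The small intestinal table has no entry for Xist, and 73.7% of its cells had a Y-linked UMI.

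Adamdec1 gave 175471 UMIs in the colon library (0.431% of all UMIs) and was found in 5003 cells (83.1%). In the small intestine library it gave 209950 UMIs (0.361%) and was found in 5417 cells (57.9%). The CD81- FBs held 79.0% of all Adamdec1 UMIs in the colon and 78.6% in the small intestine. The next share differed between the tissues: SEMFs held 19.3% in the colon, and in the small intestine the cells labelled SMCs held 12.3% and SEMFs 7.15%.

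In colon CD81- FBs Adamdec1 stood at 5608 CPM (95% Poisson interval 5578 to 5637, 3631 cells). Colon SEMFs followed at 4542 CPM (4494 to 4591, 1105 cells). Colon BECs were at 1287 CPM (1155 to 1430, 53 cells) and colon SMCs at 1242 CPM (1164 to 1323, 125 cells). These 2 neighbours in the order did not differ beyond their counting intervals. Colon LECs were at 522 CPM (479 to 567, 217 cells), and colon trophocytes were lowest at 189 CPM (179 to 200, 875 cells). All other neighbours in the colon order had intervals that did not overlap.

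The order in the small intestine was different at the top. The SMC label was highest at 9211 CPM (9099 to 9324, 468 cells), followed by CD81- FBs at 8191 CPM (8151 to 8230, 2823 cells). SEMFs were at 2302 CPM (2265 to 2339, 1109 cells). Trophocytes were at 149 CPM (143 to 155, 1913 cells), LECs at 108 CPM (102 to 114, 2498 cells) and BECs at 86.2 CPM (74.4 to 99.4, 524 cells). No 2 of these intervals overlapped. All intervals cover counting error only.

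Groups of few cells are given as values. The 8 colon pericytes were at 952 CPM (655 to 1336), of which 1 cell gave 90.9% of the UMIs. Proliferating cells were at 1239 CPM in the colon (4 cells) and 1594 CPM in the small intestine (24 cells, of which 14 had no Adamdec1 UMI).

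**Figure D1:**
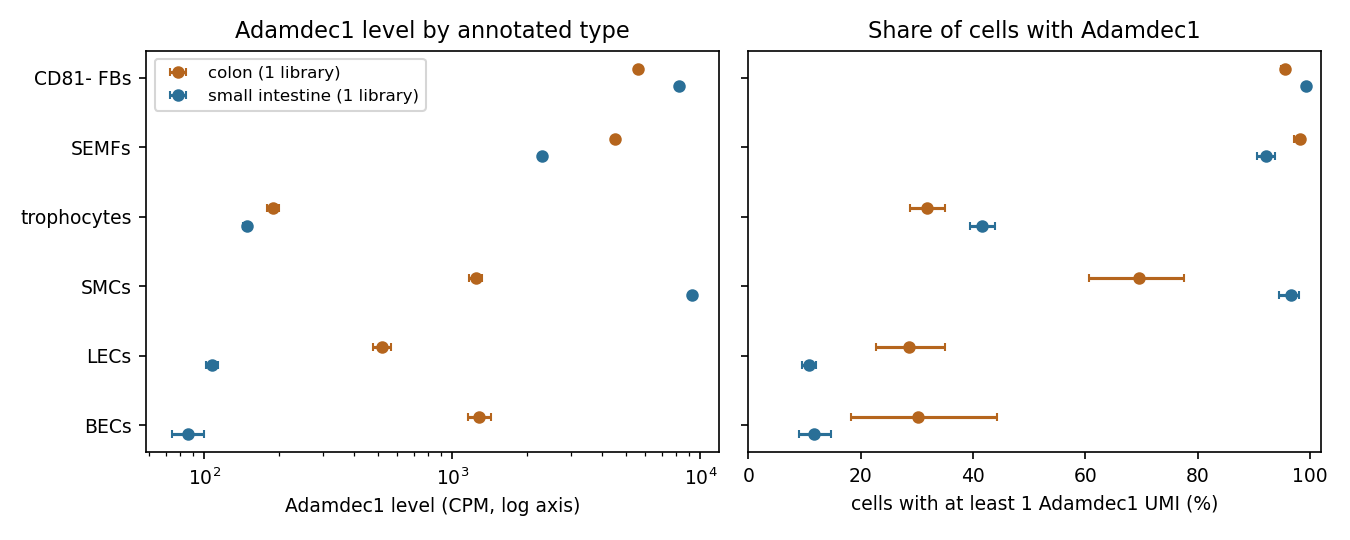
Adamdec1 in the 6 labels with at least 50 cells in each library. Left, level in CPM on a log axis with exact Poisson 95% intervals; right, percent of cells with at least 1 Adamdec1 UMI with Clopper-Pearson 95% intervals; 1 library per tissue. The SMC label lies at 1242 CPM (colon) and 9211 CPM (small intestine), and trophocytes lie below 200 CPM in both.

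The 2 main carriers differed in how evenly the cells held the transcript. Colon CD81- FBs had a median of 20 Adamdec1 UMIs per cell (quartiles 7 and 55, highest 263) and 163 cells with none. Small intestinal CD81- FBs had a median of 54 (quartiles 28 and 82, highest 236) and 18 cells with none. The coefficient of variation over cells was 1.15 in the colon and 0.653 in the small intestine. The 10% of colon cells with most Adamdec1 gave 36.9% of its UMIs, against 23.1% in the small intestine. Thus the lower colon mean went with a wider distribution whose upper end reached as high. The 95th percentile was 131.5 UMIs per cell in the colon and 127 in the small intestine. Fewer colon cells had 50 UMIs or more, 27.2% against 55.1% in the small intestine.

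Colon SEMFs were the most uniformly positive colon label. They had a median of 21 UMIs (quartiles 9 and 42, highest 241), and 98.2% of cells (97.2 to 98.9, Clopper-Pearson) had at least 1, against 95.5% (94.8 to 96.2) of colon CD81- FBs. Small intestinal SEMFs had a median of 9 UMIs (quartiles 3 and 17, highest 152), with 92.2% of cells positive (90.5 to 93.8). After each cell was thinned to 2000 UMIs, the positive share was 92.5% in colon and 82.7% in small intestinal SEMFs, so the order was the same at equal depth. The same thinning gave 87.8% in colon and 98.3% in small intestinal CD81- FBs.

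**Figure D2:**
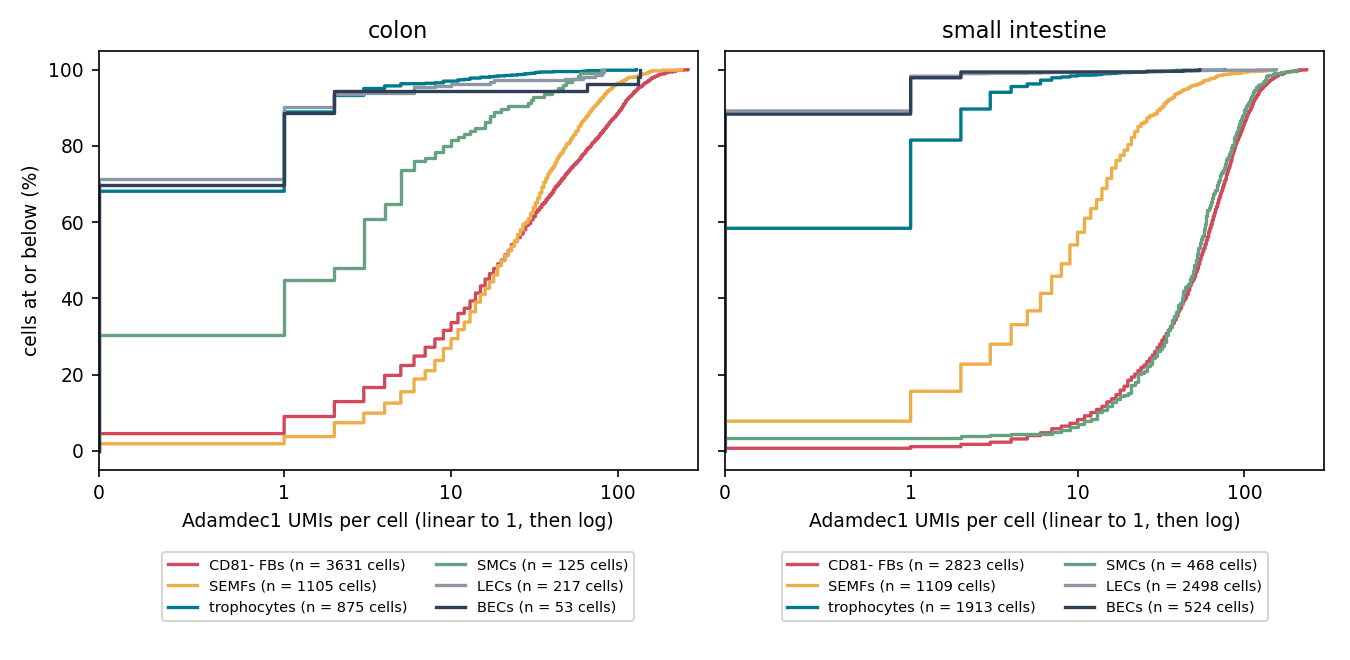
Cumulative distribution of Adamdec1 UMIs per cell by label, colon left and small intestine right; the x axis is linear to 1 and logarithmic above, and the y axis is the percent of cells at or below each count. The small intestinal SMC curve lies on the CD81- FB curve, with medians of 51.5 and 54 UMIs, and in the colon it lies far to the left of it, with a median of 3 UMIs.

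Between the tissues the direction depended on the label. In CD81- FBs the log2 ratio of colon to small intestine was -0.55 (95% interval -0.56 to -0.54), a level 1.46 times lower in the colon. From means over cells of the natural log values it was -1.25 on a log2 scale. In SEMFs it was 0.98 (0.95 to 1.01), a level 1.97 times higher in the colon. The median gene of each label was itself shifted, by -0.25 in CD81- FBs and -0.31 in SEMFs. Relative to it Adamdec1 was at -0.30 in CD81- FBs and 1.29 in SEMFs. Pooled over the 3 fibroblast labels the opposite directions nearly cancelled, at 4506 CPM (colon) and 4372 CPM (small intestine), a log2 ratio of 0.04.

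Within each tissue SEMFs stood at 81.0% of the CD81- FB level in the colon and at 28.1% in the small intestine. Colon cells could be split by sex-linked transcripts, which come from different animals. In CD81- FBs, the cells with only Y-linked UMIs and those with only Xist UMIs were both at 5586 CPM (intervals 5532 to 5641 and 5543 to 5629). In SEMFs they were at 5042 CPM (4950 to 5134) and 3830 CPM (3766 to 3895). Both colon values lay above the 2302 CPM of small intestinal SEMFs.

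The SMC label showed the widest gap among labels in which most cells were positive. Its log2 ratio of colon to small intestine was -2.89 (-2.99 to -2.80), a level 7.42 times lower in the colon. In the colon 69.6% of SMC-labelled cells held Adamdec1 (60.7 to 77.5), with a median of 3 UMIs (quartiles 0 and 6, highest 79). Of the small intestinal ones 96.6% did (94.5 to 98.0), with a median of 51.5 (quartiles 30 and 76, highest 205). The colon value was 1225 CPM in cells with Y-linked UMIs only and 1101 CPM in cells with Xist only.

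The small intestinal SMC label was mixed in its markers. The smooth muscle list (contractile genes such as Myh11, the smooth muscle myosin heavy chain) was at 23141 CPM in the colon label and 15362 CPM in the small intestinal one. Myh11 itself was in 100% of the colon and 89.7% of the small intestinal cells. The lamina propria fibroblast list was at 5371 and 14787 CPM in the same order. Dcn (decorin, a matrix proteoglycan of fibroblasts) was at 1556 CPM and 7428 CPM, and in the small intestine it was found in 98.3% of the cells.

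Adamdec1 did not sit only in the SMC-labelled cells with the least smooth muscle transcript. The small intestinal label was ranked by its smooth muscle list and cut into 4 groups of 117 cells. From the lowest to the highest group the list went from 3060 to 9251, 18361 and 33470 CPM. Adamdec1 went from 11453 to 9783, 8114 and 7187 CPM, so it was lower where smooth muscle genes were higher but remained at 91.5% of cells and a median of 35 UMIs in the highest group. The 156 cells with UMIs of all of Myh11, Actg2 (enteric actin) and Des (desmin) had 8726 CPM of Adamdec1 in 150 of them, with Dcn at 4034 CPM. The 24 cells with none of the 3 had 12813 CPM, with Dcn at 10221 CPM. In the colon the 46 cells with all 3 genes had 1613 CPM in 32 of them, with Dcn at 1113 CPM. The part of fibroblast RNA in these cells was not tested.

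**Figure D3:**
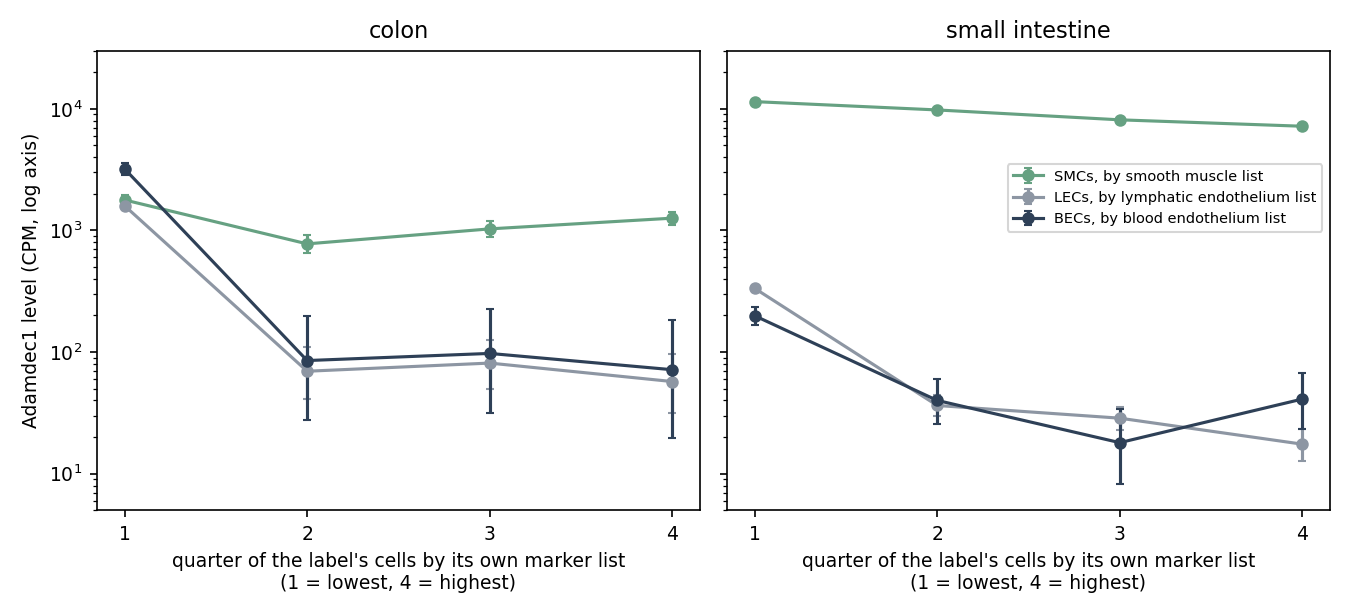
Adamdec1 level (CPM, log axis, exact Poisson 95% intervals) in 4 groups of the SMC, LEC and BEC cells, ranked by the summed level of each label's own marker list (1 = lowest, 4 = highest), colon left and small intestine right. Endothelial Adamdec1 lies mostly in the lowest group, whereas small intestinal SMCs keep 7187 CPM in the highest.

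The endothelial values rested on few cells. In colon LECs 155 of 217 cells had no Adamdec1 UMI, and 9 cells with 10 or more gave 84.9% of the UMIs. In colon BECs 37 of 53 cells had none, and 3 cells gave 95.4%, with 1 cell alone at 135 of 347 UMIs. Among small intestinal cells 17 LECs gave 74.7% and 3 BECs gave 65.1%. Those cells carried fibroblast transcripts as well. The 17 small intestinal LECs held 13135 CPM of Dcn and 2569 CPM of the lymphatic list, against 161 and 21128 CPM in LECs without Adamdec1. The 3 colon BECs held 8868 CPM of Dcn and 1963 CPM of the blood endothelial list, against 116 and 8058 CPM in BECs without Adamdec1, and had a median of 18790 UMIs. Of the colon BECs, 3 held both Xist and Y-linked UMIs, and these gave 266 of the 347 UMIs. With the remaining cells (under 10 Adamdec1 UMIs), the level was 86.4 CPM in colon LECs, 74.7 CPM in colon BECs, 27.8 CPM in small intestinal LECs and 30.4 CPM in small intestinal BECs.

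Endothelial levels were also set against those of CD81- FBs. In colon LECs Adamdec1 was at 9.31% of its CD81- FB level. For 15 other fibroblast genes the percentages ranged from 9.32 to 24.4, with a median of 10.7. In colon BECs it was at 22.9%, against a median of 26.3% (5.52 to 104). In small intestinal LECs it was at 1.32% against 3.22% (2.55 to 15.7), and in BECs at 1.05% against 2.16% (0 to 58.3). These genes are not restricted to CD81- FBs: Dcn and Lum, for example, were higher in the trophocytes of both libraries, so their percentages are no measure of free RNA alone. The log2 ratios of colon to small intestine, 2.27 (2.13 to 2.42) in LECs and 3.90 (3.64 to 4.16) in BECs, describe these few cells. Without the 5% of cells with most UMIs the BEC ratio was -0.36, and from natural log values the ratios were 0.46 (LECs) and 0.60 (BECs).

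Trophocytes were the fibroblasts with little Adamdec1. In the colon 31.9% of them held a UMI (28.8 to 35.1, median depth 7186 UMIs), close to the 28.6% of colon LECs (22.7 to 35.1, median depth 4545 UMIs). At 2000 UMIs per cell the shares were 14.4% and 18.9%, so the colon share did not exceed that of endothelium. Of small intestinal trophocytes 41.6% held a UMI (39.4 to 43.9, median depth 7807) against 10.8% of LECs (9.62 to 12.1, median depth 4118). At 2000 UMIs per cell these were 17.5% (15.8 to 19.3) and 5.62% (4.72 to 6.63), so the small intestinal share did exceed that of endothelium. Among cells with under 10 Adamdec1 UMIs the trophocyte level was 66.4 CPM (colon) and 99.3 CPM (small intestine).

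A small set of trophocytes stood above the rest. In the colon 26 cells with 10 or more UMIs held 66.3% of the label's Adamdec1, and in the small intestine 31 cells held 34.6%. The 26 colon cells kept a trophocyte list level of 4720 CPM, against 5517 CPM in trophocytes with none, and had a median of 10356 UMIs against 6944. The smooth muscle list was at 1086 CPM in the 26 cells against 83.5 CPM, the pericyte list at 197 against 77.5 CPM, and the lymphatic list at 86.5 against 34.4 CPM. Tmem176a and Tmem176b together were at 2163 against 308 CPM. The part of RNA from other cells in these 26 was not tested. The log2 ratio of colon to small intestine was 0.35 (0.24 to 0.45) but rested on 1 part of the colon library. It was -0.70 with Y-linked colon cells only (91.7 CPM) and 0.89 with Xist colon cells only (276 CPM), and 0.047 without the 1% of cells with most Adamdec1. From natural log values it was -0.13.

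The genes that went with Adamdec1 were described within the CD81- FBs of each library. Cells were ranked by the Adamdec1 share of their UMIs, and each other gene was given its Spearman rho with that share, with Adamdec1 taken out of the totals. The cells of 1 library share their preparation, so these are descriptions without p-values. The 25% of cells with least and the 25% with most Adamdec1, here the bottom and top groups, were at 421 and 14426 CPM in the colon (907 cells each) and at 2530 and 14447 CPM in the small intestine (705 cells each). The top groups thus reached like levels in both tissues, and the bottom groups differed. Depth was alike, with median UMIs of 6682 and 6730 in the colon and 6952 and 6615 in the small intestine, and the rho of Adamdec1 share with total UMIs was 0.01 and -0.07.

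In the colon 437 of 6975 genes (6.27%) were at least 1.5 times higher in the top group and 310 (4.44%) at least 1.5 times lower. For small intestinal cells 366 of 7693 (4.76%) were higher and 319 (4.15%) lower. A rho of 0.2 or above was found for 100 colon genes (1.43%) and 73 small intestinal genes (0.949%), and a rho of -0.2 or below for 83 (1.19%) and 73 (0.949%). Over the 6670 genes measured in both libraries the Pearson r of the rho values was 0.48, across genes, which are not independent. Of these genes, 156 were higher in the top group of both, which is 38.0% of the 410 colon genes and 52.7% of the 296 small intestinal genes. For lower genes 98 were shared, 40.3% of 243 and 39.8% of 246. Of the 410 genes higher in the colon, 12 were lower in the small intestine. Of the 243 lower in the colon, 7 were higher there. Over all genes measured in the small intestine 4.15% were lower and 4.76% higher. Whether the opposite genes were fewer than these shares was not tested.

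Tmem176a and Tmem176b, neighbouring genes for membrane proteins of intracellular compartments, had the highest mean rho. Tmem176a had a rho of 0.59 in the colon and 0.41 in the small intestine. From the bottom to the top Adamdec1 group it went from 954 to 3122 CPM in the colon and from 1397 to 2569 CPM in the small intestine. Tmem176b had a rho of 0.55 and 0.41, with 931 against 2612 CPM and 1573 against 2899 CPM. Both were found in nearly every colon cell (97.6% and 98.3%), so their level differed more than their detection.

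Others of the 10 highest by mean rho followed. Tnc (tenascin C, a matrix glycoprotein) had a rho of 0.45 and 0.47, going from 174 to 701 CPM in the colon and from 265 to 914 CPM in the small intestine. Igfbp3, which binds insulin-like growth factors, had a rho of 0.38 and 0.39, with 986 against 2853 CPM and 171 against 585 CPM. Pappa, a metalloprotease that cleaves IGF-binding proteins, had a rho of 0.37 and 0.30, with 28.1 against 212 CPM and 280 against 826 CPM. Adgrl3, an adhesion receptor (0.30 and 0.46), and Fhl2, a LIM-domain cofactor (0.31 and 0.44), were closer to Adamdec1 in the small intestine. Lpl, lipoprotein lipase, had a rho of 0.41 and 0.32 and went from 118 to 573 CPM and from 108 to 347 CPM.

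The chemokine genes among the 10 highest by mean rho were Cxcl14 and Ccl11. Cxcl14 had a rho of 0.45 and 0.29, with 15.1 against 405 CPM (colon) and 67.8 against 145 CPM (small intestine). Ccl11, the eosinophil attractant eotaxin, had a rho of 0.38 and 0.29, with 292 against 785 CPM and 710 against 1511 CPM.

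At the other end, Gsn (gelsolin, an actin-severing protein) had a rho of -0.54 in the colon and -0.33 in the small intestine, with 16998 against 7933 CPM and 9550 against 5121 CPM. Dcn had a rho of -0.40 and -0.43, with 10659 against 7042 CPM and 17550 against 9729 CPM. Lum (lumican, a collagen-binding proteoglycan) had -0.47 and -0.31, with 1298 against 433 CPM and 1567 against 838 CPM. Slit3, a secreted guidance cue, had -0.30 and -0.50, with 393 against 162 CPM and 1997 against 452 CPM.

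Further genes low in both were Abi3bp (-0.43 and -0.37), Fbln1 (-0.34 and -0.44), Sparcl1 (-0.33 and -0.38), Mgp (-0.38 and -0.33) and Igfbp6 (-0.44 and -0.22). Scara5, a ferritin receptor, nearly vanished with rising Adamdec1. It went from 82.3 to 4.52 CPM in the colon and from 131 to 0.643 CPM in the small intestine, the last value resting on 3 UMIs.

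**Figure D4:**
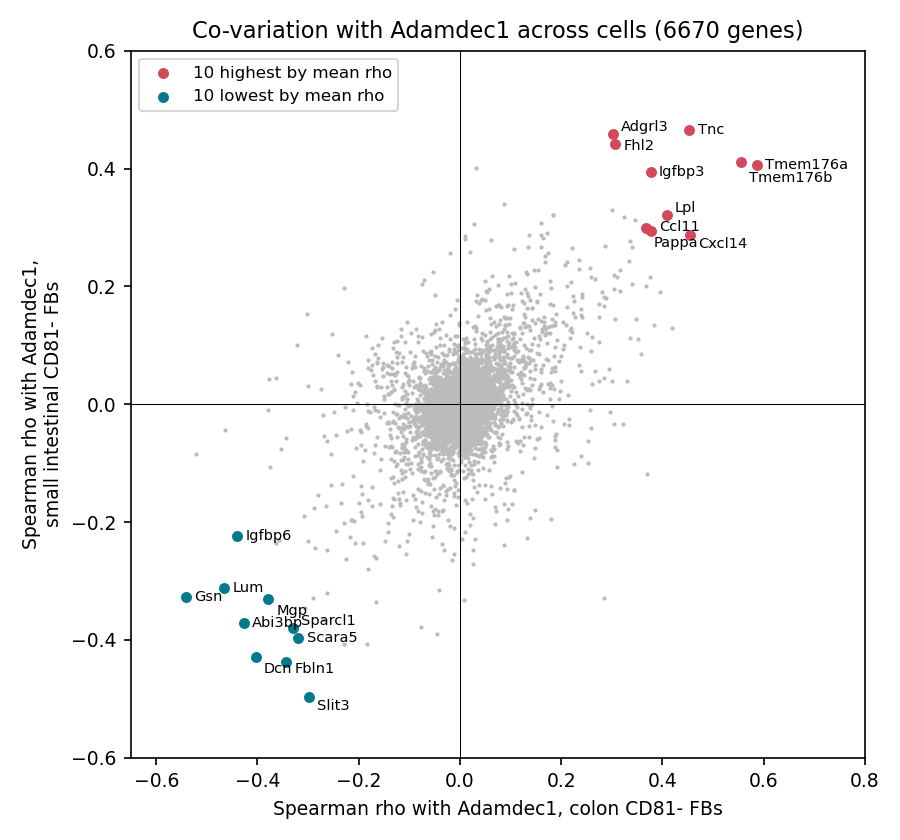
Spearman rho of each of 6670 genes with the Adamdec1 share of UMIs across CD81- FBs, colon on the x axis and small intestine on the y axis, 1 point per gene. The 10 genes with the highest and the 10 with the lowest mean rho are named, led by Tmem176a (0.59 and 0.41) and closing with Gsn (-0.54 and -0.33).

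Several genes stood out in 1 tissue. In the colon the potassium channel gene Kcnk2 had a rho of 0.40 (62.1 against 283 CPM), against 0.19 in the small intestine. Gpx3, a secreted glutathione peroxidase, had 0.42 in the colon and 0.13 in the small intestine. Sfrp1, a secreted Wnt antagonist, had 0.37 in the colon (561 against 1296 CPM) and -0.12 in the small intestine (1738 against 1352 CPM). Cd9, a tetraspanin, had -0.52 in the colon (702 against 144 CPM) and -0.08 in the small intestine. Cd55, a complement inhibitor, had -0.46 (641 against 138 CPM) and -0.04. Stmn2, a microtubule regulator, went from 317 to 26.5 CPM in the colon and was below the 10% of cells needed for measurement in the small intestine.

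Among small intestinal cells Fn1 (fibronectin) had a rho of 0.40, with 860 against 1655 CPM, and of 0.03 in the colon, with 683 against 677 CPM. Efemp1, a fibulin, had 0.34 and 0.09. Ebf1, a transcription factor, had -0.43 and went from 448 CPM (2244 UMIs) in the bottom group to 28 UMIs in the top group, and Pcolce2, a procollagen processing enhancer, went from 186 to 9.42 CPM. Both were below that limit in the colon. C3, complement component 3, had a rho of -0.38 in the small intestine (1537 against 522 CPM) and of -0.08 in the colon (303 against 108 CPM), although its log2 difference was alike in both (-1.56 and -1.48). These differences between tissues were not tested.

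The opposite genes were chosen by that pattern. Fndc1 (fibronectin type III domain 1) had a rho of 0.29 in the colon and -0.33 in the small intestine. Hpgd, which degrades prostaglandins, had 0.18 and -0.20, Ogn 0.13 and -0.23, and Il33, an alarmin cytokine, 0.06 and -0.14. In the other direction Tnfsf13b (the B cell factor BAFF) had -0.32 in the colon and 0.10 in the small intestine, and Has2 (hyaluronan synthase 2) -0.21 and 0.06.

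Marker lists of the other stromal types followed the rank of Adamdec1. The fold of 1.5 was reached by 6.27% of colon genes upward and 4.44% downward, and by 4.76% and 4.15% in the small intestine, with a median log2 difference of 0.04 and 0.06 over all genes measured. Genes found in under 10% of cells were not measured. Of the 10 trophocyte genes, 7 were measured in each library. In the colon 5 were lower and none higher (median log2 difference -1.16), and in the small intestine 6 were lower and none higher (median -1.46).

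Members of the trophocyte list differed in how far they fell. Grem1, the BMP antagonist, was at 381 against 171 CPM (colon) and 287 against 106 CPM (small intestine). Mfap5, a microfibril protein, was at 441 against 137 CPM and 631 against 190 CPM. Cd81 itself was at 87.2 against 7.75 CPM in the colon, within the label defined as lacking it. Ackr4, an atypical chemokine receptor, was at 109 against 3.86 CPM in the small intestine. Clec3b stayed within 1.5 times in both libraries (1068 against 800 CPM and 1113 against 805 CPM). Ly6c1 did so in the colon (121 against 96.6 CPM) but not in the small intestine (124 against 45.0 CPM).

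The SEMF list went the other way. In the colon 5 of 8 genes measured were higher and 1 lower (median log2 difference 0.61), and in the small intestine 3 of 6 were higher and none lower (0.92). Nrg1, an epidermal growth factor family ligand, was at 6.08 against 71.5 CPM (colon) and 34.8 against 105 CPM (small intestine). Bmp5 was at 196 against 296 CPM and 101 against 252 CPM. Tnc, named above, is also on this list. Not all members rose. Pdgfra stayed within 1.5 times in both libraries (213 against 315 CPM and 375 against 341 CPM). Wnt5a did so too, with log2 differences of 0.33 and 0.53. F3 was higher in the colon (32.7 against 69.1 CPM) but not in the small intestine (log2 difference -0.22). The gene lower in the colon was Sox6 (log2 difference -0.87). Smooth muscle genes were higher for 2 of 3 measured in the colon (Des and Synpo2) and 2 of 4 in the small intestine (Acta2 and Tagln). No smooth muscle gene was higher in both. Pericyte genes were higher for 1 of 1 and 2 of 2.

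**Figure D5:**
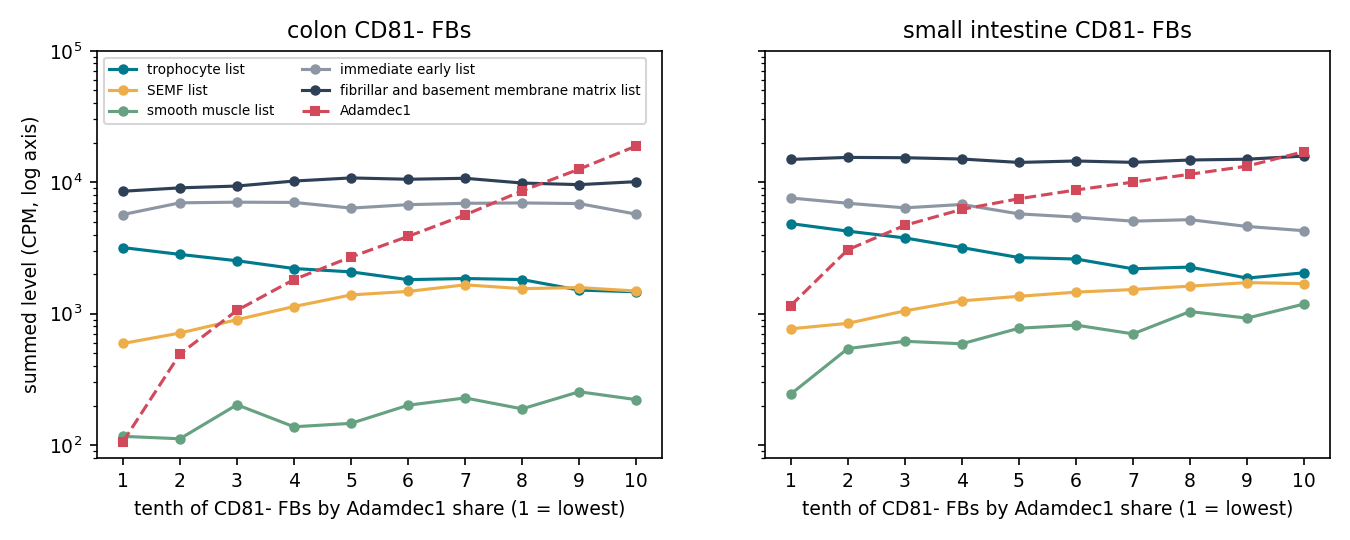
Summed level (CPM, log axis) of 5 gene lists and of Adamdec1 in 10 equal groups of CD81- FBs ranked by Adamdec1 share, colon left and small intestine right. Adamdec1 rises from 106 to 18858 CPM in the colon and from 1151 to 17085 CPM in the small intestine by construction. The trophocyte list falls and the SEMF list climbs over the lower groups, while the matrix list stays nearly level. Tnc, also picked out by its rho in these cells, gives much of the SEMF list's rise.

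In the lamina propria fibroblast list the members split. Fgfr2, an FGF receptor gene, was higher in both (171 against 454 CPM in the colon, 366 against 701 CPM in the small intestine). Dcn and Lum were lower, as given above. In all, 2 of 11 were higher and 3 lower in the colon (median log2 difference 0.22), and 2 of 9 higher and 5 lower in the small intestine (-0.60). The 25% of cells highest in this list held less Adamdec1 than the 25% lowest: 3562 against 7556 CPM (colon) and 5287 against 10638 CPM (small intestine).

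Signalling genes lay on both sides. Of the Wnt and BMP niche genes, 4 of 8 were higher and 1 lower in the colon, and 3 of 9 higher and 3 lower in the small intestine. Wnt4 was at 129 against 296 CPM and 14.2 against 63.6 CPM. Dkk2, a Wnt inhibitor, was at 281 against 100 CPM in the small intestine. Of the FGF genes, 1 of 4 was higher and 2 of 4 lower in each library. Fgf10 was at 101 against 163 CPM (colon) and 52.8 against 137 CPM (small intestine). Fgf7 was at 71.9 against 32.0 CPM and 49.4 against 10.5 CPM, so these 2 ligand genes differed in direction. Their rho values were small, at 0.13 and 0.20 for Fgf10 and -0.14 and -0.19 for Fgf7. Of the hedgehog list, Ptch1, the receptor and target gene, was at 173 against 334 CPM and 155 against 251 CPM, and Hhip, a ligand-binding antagonist, at 53.4 against 10.2 CPM and 131 against 31.7 CPM.

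Immune-related lists were uneven. Of the chemokine list, Cxcl16 was at 56.7 against 215 CPM (colon) and 153 against 272 CPM (small intestine). Cxcl13, the B cell attractant, was at 2046 against 146 CPM in the colon and at 104 against 142 CPM in the small intestine. Of the complement list, C2 was higher in the colon (17.6 against 45.0 CPM), and C4b stayed within 1.5 times in both libraries (509 against 464 CPM and 1012 against 730.4 CPM).

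Matrix genes moved little as a list. In the colon none of 10 fibrillar and basement membrane genes passed 1.5 times in either direction (median log2 difference 0.15). Small intestinal cells had 2 of 10 higher, Fn1 and Col6a1 (847 against 1290 CPM), and none lower (0.43). The immediate early genes, whose transcripts rise within minutes of stress or handling, differed between the tissues. None of 10 passed in the colon (median -0.06), whereas 7 of 10 were lower in the top group of the small intestine (-0.79), with Fosb at 563 against 270 CPM and Ier2 at 537 against 265 CPM. Their part in the small intestinal pattern was not tested. The macrophage and dendritic cell list was at 76.2 CPM in the bottom and 37.1 CPM in the top colon group, and at 11.2 and 13.7 CPM in the small intestine, with no gene of it in 10% of cells. Epithelial genes were below 2 CPM in all 4 groups.

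The pattern was then read in cells that the ranking had not used. Of the 12 genes with the highest rho in the colon, 11 had a positive rho in the small intestine, 8 of them of at least 0.2. Of the 12 highest in the small intestine all 12 were positive in the colon, 8 of at least 0.2. For all genes measured in CD81- FBs the median rho was 0.0055 (colon) and 0.0011 (small intestine). A rho of at least 0.2 was reached by 1.43% and 0.949% of them. The 10 genes highest in both were positive for 9 of 10 in small intestinal SMC-labelled cells (median rho 0.23), 8 of 10 in small intestinal SEMFs (0.14), 7 of 10 in colon SEMFs (0.04), and 9 of 10 in the trophocytes of either tissue (0.10 and 0.05). The 10 lowest were negative for only 4 of 10 in small intestinal SEMFs (median 0.04) and 5 of 10 in small intestinal SMCs (-0.04), and for 7 of 10 in colon SEMFs (-0.05). Over all genes measured, a positive rho was found for 41.3% in small intestinal SMCs, 62.2% in small intestinal SEMFs, 33.5% in colon SEMFs, 61.5% in colon trophocytes and 61.2% in small intestinal trophocytes. The correlations in trophocytes rest on cells with few Adamdec1 UMIs.

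Across labels, the genes most like Adamdec1 were found by the Pearson r of log2(CPM + 10) over the 12 profiles (6 labels in each library), which share libraries and depth. Among 5976 genes ranked, with a median r of 0.03, the highest was Lin7a, a scaffold protein gene, at 0.95. It was at 84.8 CPM in colon CD81- FBs, 83.0 CPM in colon SEMFs and 4.71 CPM in colon trophocytes, and at 71.3, 66.4 and 9.18 CPM in the small intestine, with 71.3 CPM in small intestinal SMCs. Fhl2 (0.91), H2afj (0.91), Rad51b (0.91), Gm13889 (0.90), Col27a1 (0.89), Col6a5 (0.88), Atxn7l3b (0.88), Adgrl3 (0.88) and Tnc (0.87) followed. Fhl2, Adgrl3 and Tnc were therefore like Adamdec1 both across labels and across cells of 1 label. Of the 10, 7 stayed among the highest 10 with 1 CPM added and 5 without the SMC profiles. The r takes no account of the size of the differences. Over the 12 profiles Atxn7l3b lay between 145 and 237 CPM and H2afj between 79.1 and 193 CPM. Adamdec1 lay between 86.2 and 9211 CPM.

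None of the other listed ADAM genes had this profile among the 10 most like it. Adam23 was at 277 CPM in colon CD81- FBs and 3.37 CPM in small intestinal CD81- FBs. Adam19 and Adam12 were highest in SEMFs (585 and 929 CPM for Adam19, 36.3 and 267 CPM for Adam12), and Adam10, a membrane sheddase, was highest in LECs (271 and 344 CPM). Across CD81- FBs 1 of 6 ADAM genes measured was higher with Adamdec1 in each library. It was Adam19 (107 against 200 CPM for colon and 58.6 against 97.7 CPM for small intestinal cells). In the small intestine 1 of 6, Adam15, was lower. Over all genes measured, 6.27% were higher in the colon, and 4.76% were higher and 4.15% lower in the small intestine.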

How the data were processed

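The 2 libraries used were colon and small intestine, with 1 per tissue. Per the submitters' processing notes, Cell Ranger 7.1.0, Seurat 4 and the mm10 build were used; filters on cells and genes and any removal of doublets are not given in the sources used here. The authors deposited raw UMI counts per gene and cell, natural log normalized values and a cell type label per cell. The deposited natural log values equalled the natural log of 1 plus 10000 times the share of UMIs. Counts were used throughout, and the natural log values as an alternative. Capillary, arterial and venous endothelial labels were joined as BECs, 3 pericyte labels as pericytes, and spellings of SEMF labels were joined. Doublets were not called.

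Counts were summed per library and label and given as CPM with exact Poisson 95% intervals; shares have Clopper-Pearson intervals and ratios an exact conditional binomial interval. These cover counting error only, since amplified molecules of 1 library are not replicates. Labels with at least 50 cells were compared. Across CD81- FBs, genes with a UMI in at least 10% of cells were measured. With 1 library per group no p-value was computed. Named genes were the 12 highest and 12 lowest rho per library, the 10 highest and 10 lowest by mean rho, the 10 most alike over labels, and genes of 19 lists; mitochondrially encoded, ribosomal protein, haemoglobin and immunoglobulin genes, Xist and genes of the Y chromosome did not enter rankings. Genes with opposite directions, neighbouring genes and Hox genes were named after their values were seen. Some listed genes are not reported here. The gene and the lists were chosen with earlier results of these data known. The lists with no member measured were those of lymphatic and blood endothelium, macrophages and dendritic cells, epithelium, enteric glia and mesothelium. Software was Python 3.11.15, numpy 2.4.6, scipy 1.17.1 and pandas 2.3.3; the computations were tested on simulated data. Gene coordinates come from GENCODE M21 and RefSeq annotation of GRCm38.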

Additional observations from a re-analysis of the deposited data

Results flagged for a closer look

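The direction of the colon to small intestine difference was not the same in every label. The log2 ratio was -0.55 in CD81- FBs, and it was positive in SEMFs (0.98), trophocytes (0.35), LECs (2.27) and BECs (3.90). Each label had 1 library per tissue, and the differences between labels were not tested. The trophocyte and BEC values changed sign in some alternatives, given below.

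Within a tissue, the SMC label stood at a log2 ratio of -2.18 to CD81- FBs in the colon and of 0.17 in the small intestine. This difference was not tested either. The small intestinal SMC label also held more fibroblast transcript, with Dcn at 7428 CPM against 1556 CPM in the colon label, and the part of that in the difference was not tested.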

How the results depend on the processing

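Values below are log2 ratios of colon to small intestine unless stated, and causes of the changes were not tested. CD81- FBs, SEMFs, SMCs and LECs kept their direction in each alternative run. In CD81- FBs the ratio was -0.58 with equal weight per cell, -0.57 with cells thinned to 2000 UMIs, -0.58 without the deepest 5% of cells, -0.56 with mitochondrial genes, Adamdec1 and 1 further gene taken out of the totals, and -0.58 without the 1% of cells with most Adamdec1. In SEMFs it was 1.20, 1.19 and 1.13 in the first 3 of these and 1.13 with Y-linked colon cells only. In SMCs it was -3.02 with equal weights, -3.07 without the deepest cells and -3.05 without the cells with most Adamdec1. In LECs it was 2.63 (thinned), 2.80 (without the deepest cells), 2.79 (Y-linked colon cells only) and 3.66 (without the cells with most Adamdec1). Trophocytes were at 0.12 without the deepest cells, 0.047 without the cells with most Adamdec1 and -0.70 with Y-linked colon cells only. BECs were at 2.59 with equal weights, 2.61 thinned, 4.93 without the cells with most Adamdec1, -0.36 without the deepest cells and -0.71 with Y-linked colon cells only. With Xist colon cells only, an alternative chosen after seeing the data, the ratios were 0.73 (SEMFs), 0.89 (trophocytes), -3.06 (SMCs), 1.82 (LECs) and 3.04 (BECs). From means of the natural log values the differences, on a log2 scale, were -1.25 (CD81- FBs), 1.12 (SEMFs), -0.13 (trophocytes), -3.82 (SMCs), 0.46 (LECs) and 0.60 (BECs); this scale gives no CPM level.

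Among genes that go with Adamdec1 in CD81- FBs, thinning left 2822 colon and 3436 small intestinal genes to measure. Of these, 30 and 19 had a rho of at least 0.2 (100 and 73 unthinned) and 27 and 21 a rho of -0.2 or below (83 and 73). The genes at least 1.5 times higher were 200 and 174 (437 and 366 unthinned) and those lower 124 and 160 (310 and 319). With genes in at least 25% of cells (3288 and 4098 measured) they were 203 and 183 higher and 131 and 153 lower. With Y-linked colon cells only, 722 colon genes were higher. That run held 1040 of the 3631 colon CD81- FBs, and the part of the smaller cell number in this count was not tested. No rho, list median or likeness value of a named gene changed sign. No paired analysis was possible because each tissue has 1 library and no replicates. Counting precision limits small labels most, as the 53 colon BECs show.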

Other observations

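Within SEMFs the genes that went with Adamdec1 were partly different from those in CD81- FBs; they were chosen after their values were seen. The 25% of SEMFs with least and the 25% with most Adamdec1 were at 709 and 11949 CPM in the colon (276 cells each) and 246 and 5176 CPM in the small intestine (277 cells each). Depth was not alike in colon SEMFs, with a median of 6685 UMIs in the bottom and 5371 UMIs in the top group, and a rho of -0.22 between Adamdec1 share and total UMIs. Their smooth muscle list was at 3700 against 1989 CPM, and the part of either in the genes below was not tested. In colon SEMFs Hoxd11, a posterior homeobox gene, had the highest rho (0.39), with 0 UMIs in the lowest and 150 UMIs in the top group. Plpp3 (0.34), Rad51b (0.33), Hpse2 (0.33) and Pappa (0.29) followed. The lowest were S100a6 (-0.48, 6967 against 3091 CPM) and Cd9 (-0.34, 835 against 339 CPM), and Wif1, a Wnt inhibitor, went from 80.3 to 10.1 CPM.

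In small intestinal SEMFs Aspn (asporin, a matrix proteoglycan) led with a rho of 0.45 and went from 44.8 to 471 CPM. Hoxc8 followed (0.40, 34.1 against 234 CPM), then Pappa (0.35) and Kcnk2 (0.35). The lowest was Smoc2 (-0.40, 750 against 244 CPM). Ccl11 was low here as well (-0.32, 2267 against 790 CPM), although across small intestinal CD81- FBs its rho was 0.29. Lum had a rho of 0.33 in small intestinal SEMFs and of -0.31 in small intestinal CD81- FBs.

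Hox genes, which mark position along the body axis, were read across CD81- FBs as well. Of 5 measured in the colon and 11 in the small intestine, 1 in each reached 0.2 and none reached -0.2. Over all genes measured, 1.43% (colon) and 0.949% (small intestine) reached 0.2, and 1.19% and 0.949% reached -0.2. Counts from so few Hox genes were not tested against these shares. In the colon Hoxd11 went from 22.7 to 75.2 CPM (rho 0.20) and Hoxa13 from 49.3 to 15.2 CPM (rho -0.16). In the small intestine Hoxc8 went from 47.2 to 141 CPM (rho 0.26) and Hoxa5 from 42.2 to 20.6 CPM (rho -0.12). These are values within single libraries.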
